A study of Mus musculus with 6 samples.

Results

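The genes described here are 9 members of the EGR, NR4A and IER families of immediate early genes, namely Egr1, Egr2, Egr3, Nr4a1, Nr4a2, Nr4a3, Ier2, Ier3 and Ier5. They were found by symbol among the 41549 genes of the table, and each symbol matched 1 gene. The mRNA of mouse bone marrow-derived macrophages (BMDMs) was measured in 6 libraries. Bone marrow of C57Bl/6N wild type mice aged 10 to 12 weeks was cultured for 7 days with M-CSF, the growth factor of the macrophage lineage. The cells were then transfected by lipofectamine with a locked nucleic acid antisense against the tRNA fragment 5′tRF-Glu(CTC) (αGlu) or with a control antisense (Ctr). All were afterwards exposed to IL-4 and IL-13 at 10 ng/ml for 48 h, which polarizes macrophages toward the anti-inflammatory M2 state. Each group held 3 libraries, and the comparison asks what blocking the fragment does to the M2 transcriptome. The libraries model cultured cells after a transient transfection, and they hold no small RNA reads, so the extent of the blockade could not be checked in them. The paper reports inhibition of the fragment by the antisense in such macrophages, a measurement that is not part of these libraries. The antisense target is printed to show what was blocked, with the bases paired by the inhibitor in capitals (bases 2 to 21 of 21).
5′tRF-Glu(CTC) target: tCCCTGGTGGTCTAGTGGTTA
αGlu inhibitor: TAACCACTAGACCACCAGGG

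Immediate early genes are transcribed within minutes of a stimulus from factors that are already present in the cell, chiefly serum response factor with its ternary complex partners, CREB, and NF-κB, downstream of the MAP kinases. The EGR proteins are zinc finger transcription factors that bind GC-rich sites and are held in check by the corepressors NAB1 and NAB2. The NR4A proteins are orphan nuclear receptors that act without a known natural ligand, IER2 and IER5 are related nuclear proteins, and IER3 is a membrane-associated protein unrelated to them. In macrophages, Egr2 is in addition a target of IL-4 signalling through STAT6 and takes part in alternative activation. The libraries were made after 48 h of cytokine, long after the first wave of such induction.

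Total counts lay between 17912831 and 30386653 per library, and 3 counts corresponded to 0.0944 to 0.172 CPM, which is here the deposited count scaled to the library size after TMM normalization. The library αGlu 1 stood apart from the other αGlu libraries. Across the 11933 genes tested its log2 CPM correlated at 0.929 with αGlu 2 and with αGlu 3, and at 0.966 to 0.982 with the Ctr libraries, while αGlu 2 and αGlu 3 correlated at 0.992. For 5086 of these 11933 genes, αGlu 1 lay within the range of the Ctr libraries. The same count was not made for αGlu 2 or αGlu 3, so by itself it does not measure likeness to Ctr. Fold changes and within-family ratios are therefore given with and without αGlu 1. That library was singled out by its values, so calls made without it are descriptions of the 5 remaining libraries. All 7 macrophage markers were above 1 CPM on average, and 5 of 6 markers of alternative activation were. The latter did not move together: Retnla ranged from 246 to 540 CPM across Ctr against 101, 0.0315 and 0.0367 CPM in αGlu 1, 2 and 3, and Mgl2 at 66.3 to 87.9 against 10.6, 0.504 and 2.35 CPM, whereas Arg1 was at 24.3 to 45.2 against 23.5, 1886 and 1792 CPM. No marker of dendritic cells (of 6), lymphocytes (of 7) or fibroblasts (of 6) reached that level, and 1 of 6 for mast cells and basophils did (Kit). The summed level of 10 neutrophil markers was 107 to 160 CPM in Ctr and 187, 539 and 609 CPM in αGlu 1, 2 and 3, with 3 of the 10 above 1 CPM (S100a8, Mpo and Csf3r). Nearly all of that sum was Csf3r, the G-CSF receptor, at 103 to 158 CPM in Ctr and 183 to 608 CPM in αGlu, whereas the defining neutrophil genes Ly6g and Retnlg were at 0 in all 6 libraries. The part of these markers in the results was not tested.

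In the αGlu macrophages, Ier3 lay above and Egr1, Egr2 and Nr4a1 lay below every Ctr library, whereas Ier2, Ier5 and Nr4a2 overlapped with Ctr. Of the 11933 genes tested, 14.2% were higher and 15.9% were lower without overlap, against 1 and 3 of the 7 members tested. The mean level of Ier3 in αGlu was 4.25 times that in Ctr, that of Egr2 was 0.440 times and that of Egr1 was 0.321 times, but most of each difference came from αGlu 2 and αGlu 3. With all 6 libraries no member was called (edgeR quasi-likelihood test, Benjamini-Hochberg adjusted p under 0.1 and log2 fold change beyond 1 in either direction), and neither was any other gene (0% of all genes tested, none below an adjusted p of 0.149). An unadjusted p under 0.05 was reached by 1 member, Ier3, and by 2943 genes. limma-voom also called no member and no gene, with 2 members and 3101 genes at an unadjusted p under 0.05. DESeq2 called 1 member, Ier3, where it called 8.13% of all genes. Without αGlu 1, the quasi-likelihood test called 2 members higher (Ier3 and Nr4a2), against 8.05% of all genes, and 3 members lower (Egr1, Egr2 and Ier5), against 10.5%. Egr3 and Nr4a3 had too few reads to be tested. In bulk RNA, fewer cells that express a gene and less RNA of it per cell cannot be told apart, for these and all values below.

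**Figure D1:**
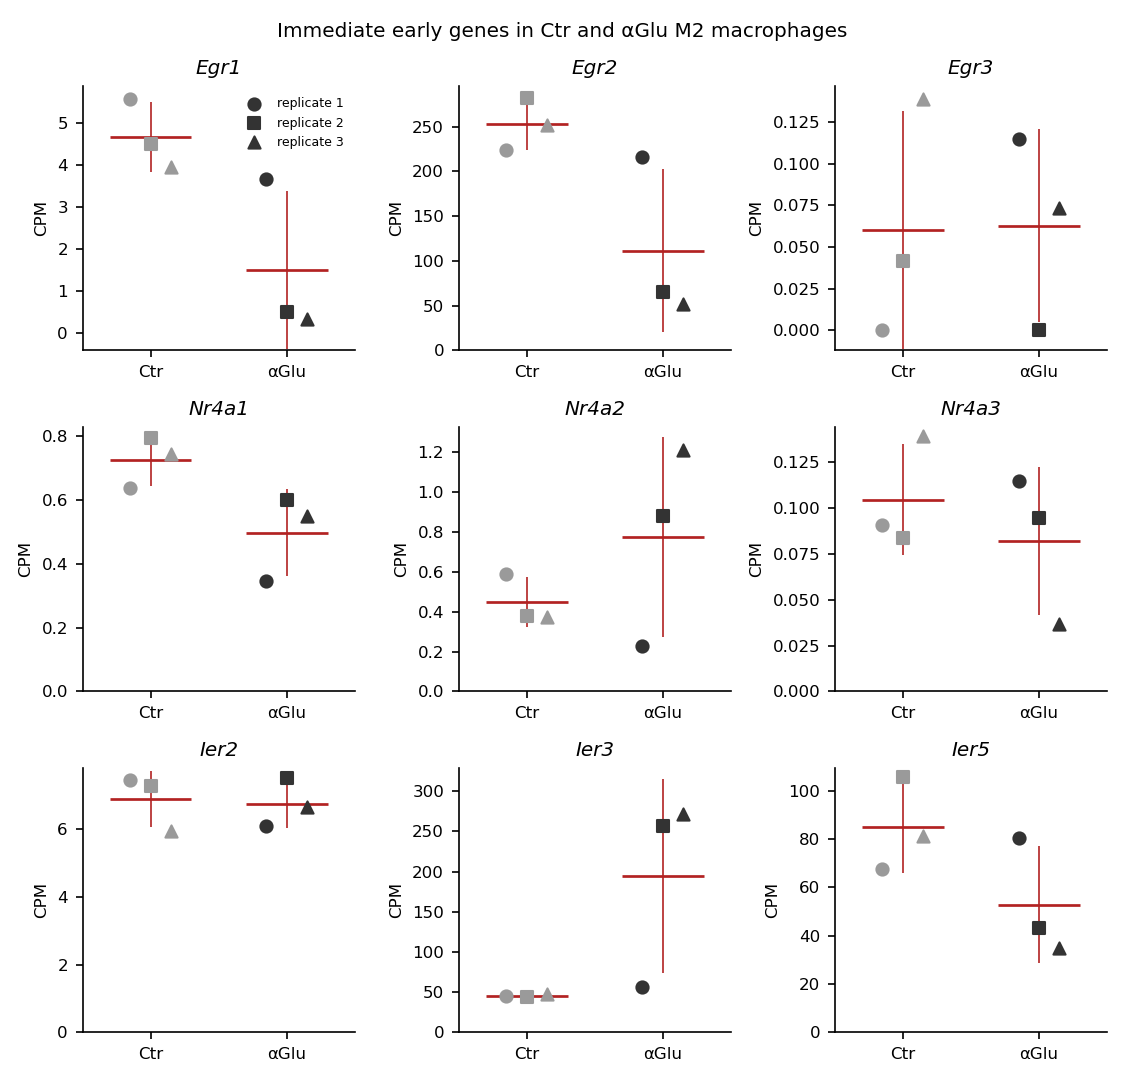
Level in CPM (y axis, linear) of each of the 9 genes in the 3 Ctr (grey) and 3 αGlu (black) libraries, with marker shapes for the replicate number, a red line for the group mean and a thin red line for 1 SD on either side. For Ier3, Egr2 and Egr1, αGlu 2 and 3 lay together away from Ctr and αGlu 1 lay near Ctr, and the y axes differ between genes.

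The levels of the 9 genes were compared in deposited TPM, which is scaled by exon length. In Ctr, Egr2 was the most abundant at 224 ± 22.4 TPM (SD, n = 3), followed by Ier3 at 122 ± 5.94 TPM, Ier5 at 77.9 ± 16.5 TPM and Ier2 at 13.6 ± 1.77 TPM. Egr1 stood at 3.16 ± 0.618 TPM, Nr4a1 at 0.622 ± 0.0590 TPM and Nr4a2 at 0.332 ± 0.0999 TPM. The last places were held by Nr4a3 at 0.0526 ± 0.0149 TPM and Egr3 at 0.0409 ± 0.0485 TPM, the only neighbours in this order whose Ctr libraries overlapped. The order at the top was different in 2 of the 3 αGlu libraries. Ier3 was above Egr2 there, at 726 against 61.4 TPM in αGlu 2 and at 791 against 50.6 TPM in αGlu 3, but not in αGlu 1, where Egr2 stood at 197 and Ier3 at 153 TPM. Among all genes with a read, Ier3 went from the 92.3 to 92.9 percentile of TPM in Ctr to the 93.8, 99.0 and 99.0 percentile in αGlu 1, 2 and 3. Egr2 went from the 95.8 to 96.5 percentile in Ctr to 95.2, 85.5 and 81.8.

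Egr2, the EGR factor that responds to IL-4, was the dominant EGR transcript of these cells (ENSMUSG00000037868, GRCm38 chr10:67535475-67542188, plus strand). Its deposited counts were 4932, 6752 and 5415 in Ctr 1, 2 and 3, and 3770, 2070 and 1425 in αGlu 1, 2 and 3. As CPM, Ctr stood at 224, 282 and 251, and αGlu at 216, 65.2 and 52.3. αGlu 1 lay just under the lowest Ctr library and the other αGlu libraries far below, without overlap between the groups. The log2 fold change was -1.18 ± 0.55 (SE; 95% interval -2.54 to 0.17; adjusted p = 0.238, edgeR quasi-likelihood test). Without αGlu 1 it was -2.11 ± 0.15 (adjusted p = 0.000188), and the adjusted p over 13 alternative settings ranged from 0.000188 to 0.519.

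The RefSeq promoter windows of Egr2 held letter matches to motifs of immediate early control. Windows of 250 bases before to 50 after a RefSeq start site (GRCm38.p6) were used for 6 of the 9 genes, 10 windows in all. The stretch below lies at positions -76 to -47 from 1 annotated Egr2 start (chr10:67537793-67537822, plus strand) and is printed because it joins a CArG box, the site of serum response factor, with the core of a cAMP response element (CRE; TGACG, searched on both strands). Both are in capitals.
Egr2: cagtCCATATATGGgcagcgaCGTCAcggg
A CArG box was found in 1.63% of the 32851 mouse promoter windows and a CRE core in 20.8%. Of the other Egr2 windows, those that start near it held the same CArG box, the next one upstream held a different CArG box and no CRE core, and the farthest upstream held 2 overlapping kappaB matches, a motif found in 8.46% of windows. A match is a description of the letters and not evidence that a factor was bound.

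Egr1 (ENSMUSG00000038418), the serum- and stress-responsive founder of the family, was much less abundant. Its counts were 123, 108 and 85 in Ctr 1, 2 and 3 and 64, 16 and 9 in αGlu 1, 2 and 3. In CPM it stood at 5.59, 4.51 and 3.94 for Ctr, and for αGlu at 3.67, 0.504 and 0.330. As with Egr2, αGlu 1 lay just under the lowest Ctr library, and αGlu 2 and αGlu 3 held the low values. The fold change on the log2 scale was -1.70 ± 0.89 (95% interval -3.87 to 0.47; adjusted p = 0.271, edgeR quasi-likelihood test). Without αGlu 1 it was -3.46 ± 0.32 (95% interval -4.23 to -2.70; adjusted p = 0.000472), and the adjusted p over the 13 settings ranged from 0.000472 to 0.553.

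Egr3, a relative of Egr2 best known from neurons and lymphocytes, was barely detected (ENSMUSG00000033730, chr14:70077203-70082614, plus strand). It had 0, 1 and 3 reads in Ctr and 2, 0 and 2 reads in αGlu. The 4 reads of each group correspond to 0.0593 CPM in Ctr (exact Poisson 95% interval 0.0161 to 0.152, counting error only) and 0.0523 CPM in αGlu (0.0143 to 0.134), so a difference was not detectable at this depth. Egr2 accordingly made up 98.1% to 98.8% of the summed EGR TPM in the Ctr libraries and 98.7%, 99.4% and 99.4% in αGlu 1, 2 and 3. The within-library log2 ratio of Egr2 to Egr1, taken on TPM + 1, was 5.76 ± 0.316 in Ctr and 5.57 ± 0.221 in αGlu (difference -0.195; exact two-sided permutation p = 0.3, adjusted p = 0.337 over 9 pairs within families). That difference was -0.316 without αGlu 1 (exact permutation p = 0.4) and -0.746 with RPKM in place of TPM, but it turned to 0.717 with 0.1 in place of 1 as the added value, and Egr1 lay under 1 TPM in αGlu 2 and αGlu 3, so no direction is given for it.

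**Figure D2:**
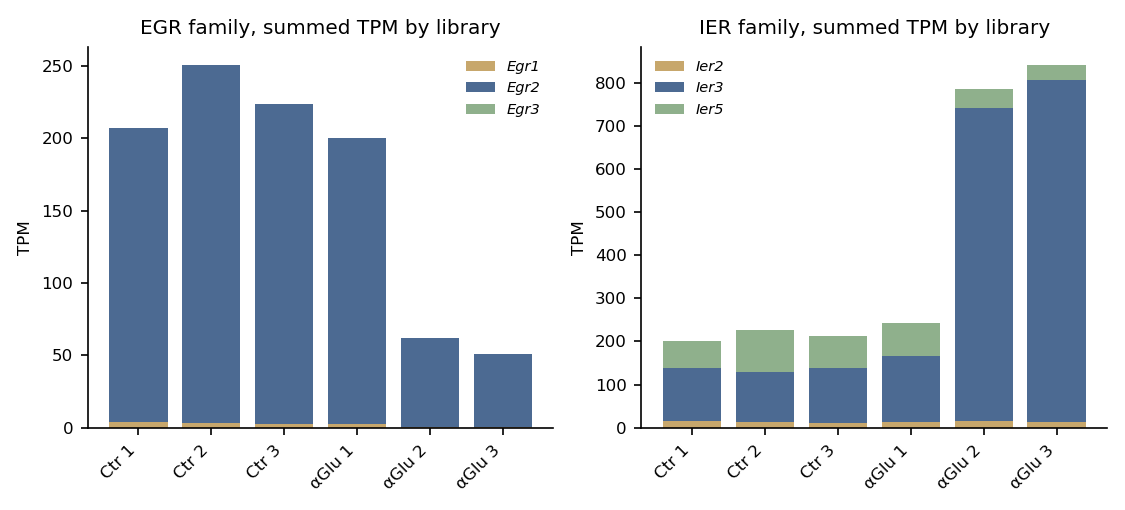
Summed TPM (y axis, linear from 0) of the EGR genes (left) and the IER genes (right) in each of the 6 libraries, stacked by gene. Egr2 and Ier3 filled most of their columns, and αGlu 1 resembled the Ctr libraries in both.

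Ier3, also known as IEX-1 and induced by NF-κB and stress, is a regulator of apoptosis and of ERK signalling (ENSMUSG00000003541, chr17:35821684-35822923, plus strand). Its counts were 997, 1052 and 1040 in Ctr 1, 2 and 3 and 975, 8146 and 7420 in αGlu 1, 2 and 3. As CPM, Ctr stood at 45.3, 44.0 and 48.3, and αGlu at 55.9, 256 and 272. The Ctr libraries were close together, αGlu 1 lay slightly above them, and αGlu 2 and αGlu 3 held several times that level. The log2 fold change was 2.09 ± 0.57 (95% interval 0.69 to 3.48; unadjusted p = 0.0105, adjusted p = 0.157, edgeR quasi-likelihood test). Without αGlu 1 it was 2.52 ± 0.084 (95% interval 2.32 to 2.73; adjusted p = 1.58e-05). DESeq2, run on all 6 libraries, gave 2.08 with an adjusted p of 0.00364, and over the 13 settings the adjusted p ranged from 1.58e-05 to 0.427.

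The Ier3 promoter is printed because Ier3 was the only member above every Ctr library. The stretch spans positions -250 to -30 from the start (chr17:35821463-35821683, plus strand), and its capitals mark the single kappaB match, which lies on the minus strand.
Ier3: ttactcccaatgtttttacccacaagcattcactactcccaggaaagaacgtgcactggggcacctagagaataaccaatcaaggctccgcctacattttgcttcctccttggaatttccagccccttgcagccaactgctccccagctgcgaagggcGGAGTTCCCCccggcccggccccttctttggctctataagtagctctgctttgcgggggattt
No CArG box, CRE core or EGR site (GCGGGGGCG or GCGTGGGCG) was found in the Ier3 window, which says only that these letters are not in it.

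Ier5, a regulator of heat shock factor 1 (ENSMUSG00000056708, chr1:155096361-155099636, minus strand), had counts of 1491, 2524 and 1752 in Ctr and 1402, 1373 and 952 in αGlu. As CPM, Ctr stood at 67.7, 105 and 81.3, and αGlu at 80.4, 43.2 and 34.9. αGlu 1 lay within the Ctr range, and αGlu 2 and αGlu 3 lay below it. Its log2 fold change was -0.69 ± 0.34 (95% interval -1.52 to 0.15; adjusted p = 0.259, edgeR quasi-likelihood test), and without αGlu 1 it was -1.12 ± 0.20 (adjusted p = 0.00626). Over the 13 settings the adjusted p ranged from 0.00626 to 0.549. The RefSeq window of Ier5 held none of the motifs searched.

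Ier2, a nuclear protein induced by growth factors (ENSMUSG00000053560, chr8:84661331-84662852, minus strand), was level between the groups in these libraries. Its counts were 164, 174 and 128 in Ctr and 106, 238 and 181 in αGlu, and in CPM 7.45, 7.27 and 5.94 against 6.08, 7.49 and 6.64. The ranges overlapped, and the groups differed by less than the spread between replicates. The log2 fold change was -0.03 ± 0.15 (95% interval -0.40 to 0.34; adjusted p = 0.908, edgeR quasi-likelihood test) and 0.03 ± 0.15 without αGlu 1. Its sign turned with library size alone as the scaling, so no direction is given.

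The shares of the IER genes were far from Ctr in αGlu 2 and αGlu 3 and close to Ctr in αGlu 1. Of the summed IER TPM, Ier3 made up 61.0%, 51.3% and 59.8% in Ctr and 63.4%, 92.6% and 94.1% in αGlu 1, 2 and 3. Ier5 made up 31.5%, 42.5% and 34.8% in Ctr and 31.5%, 5.39% and 4.17% in αGlu. The log2 ratio of Ier5 to Ier3 was -0.662 ± 0.351 in Ctr and -3.18 ± 1.89 in αGlu, and that of Ier3 to Ier2 was 3.08 ± 0.230 and 4.89 ± 1.18. Neither ratio overlapped between groups, with an exact permutation p = 0.1 for each, which is the smallest that 3 against 3 libraries allow, and an adjusted p = 0.180 over 9 pairs. The same absence of overlap and the same p values held for Egr3 to Egr1, Egr3 to Egr2 and Nr4a3 to Nr4a1. Egr3 and Nr4a3 had too few reads to be tested, so absence of overlap is not particular to the IER ratios. The ratio of Ier5 to Ier2 overlapped (difference -0.707, exact permutation p = 0.2, adjusted p = 0.257). Without αGlu 1 the differences were -3.60 for Ier5 to Ier3, 2.49 for Ier3 to Ier2 and -1.12 for Ier5 to Ier2. The exact permutation p was 0.2 for each, which is the smallest that 3 against 2 libraries allow.

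The NR4A genes were close to the detection limit. Nr4a1 (Nur77; ENSMUSG00000023034, chr15:101254269-101274795, plus strand) had 14, 19 and 16 reads in Ctr and 6, 19 and 15 in αGlu, or 0.636, 0.794 and 0.742 CPM against 0.344, 0.598 and 0.550. All αGlu libraries lay below the lowest Ctr library, and αGlu 1 was the lowest of all. The log2 fold change was -0.51 ± 0.32 (95% interval -1.29 to 0.26; adjusted p = 0.332, edgeR quasi-likelihood test), and -0.34 ± 0.33 without αGlu 1 (adjusted p = 0.449). Over the 12 alternative settings that held Nr4a1, the adjusted p ranged from 0.324 to 0.554.

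Nr4a2 (Nurr1; ENSMUSG00000026826, chr2:57106830-57124003, minus strand) had 13, 9 and 8 reads in Ctr and 4, 28 and 33 in αGlu, or 0.591, 0.376 and 0.371 CPM against 0.229, 0.881 and 1.21. αGlu 1 held the lowest value of the 6 libraries and αGlu 2 and αGlu 3 the highest values. On the log2 scale the fold change was 0.83 ± 0.59 (95% interval -0.63 to 2.28; adjusted p = 0.391, edgeR quasi-likelihood test), and 1.21 ± 0.38 without αGlu 1 (95% interval 0.31 to 2.12; adjusted p = 0.0440). Over the 12 alternative settings that held Nr4a2, the adjusted p ranged from 0.0440 to 0.793. Nr4a3 (Nor1; ENSMUSG00000028341, chr4:48045153-48086447, plus strand) had 2, 2 and 3 reads in Ctr and 2, 3 and 1 in αGlu. Its 7 and 6 reads correspond to 0.104 CPM (exact Poisson 95% interval 0.0417 to 0.214) and 0.0785 CPM (0.0288 to 0.171), and a difference was not detectable at this depth. The summed NR4A level was 0.976 to 1.05 TPM in Ctr and 0.539, 1.29 and 1.52 TPM in αGlu 1, 2 and 3, and Nr4a2 made up 27.8% to 42.6% of it in Ctr against 32.5%, 53.8% and 64.7%.

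Apart from their low level, the NR4A genes shared the number of CRE cores in their promoter windows. The RefSeq windows of Nr4a1, Nr4a2 and Nr4a3 held 4 CRE cores each, where 76 of all 32851 windows (0.231%) held at least 4. That limit of 4 equals the count in the NR4A windows, and a single core was found in 20.8% of windows. The stretch of the Nr4a2 promoter at positions -205 to -102 from the start (chr2:57124105-57124208, minus strand) shows its 4 CRE cores in capitals.
Nr4a2: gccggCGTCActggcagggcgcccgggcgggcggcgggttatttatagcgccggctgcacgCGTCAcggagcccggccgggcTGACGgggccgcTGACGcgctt
The Nr4a1 window also held 1 EGR site (GCGGGGGCG, found in 2.91% of windows) and 1 kappaB match. The full CRE (TGACGTCA, 1.79% of windows), the EGR site GCGTGGGCG (0.612%), the NR4A site AAAGGTCA (1.51%), the AP-1 site TGACTCA (5.2%) and a STAT6-type site (TTC, any 4 bases and GAA, 6.95%) were not found in the windows of any of the 6 genes.

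**Figure D3:**
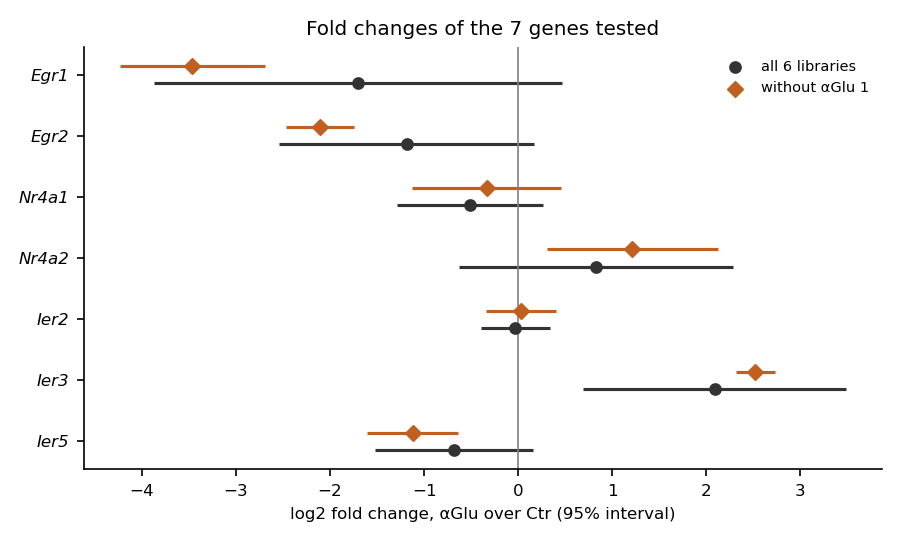
Log2 fold change of αGlu over Ctr (x axis) for the 7 genes tested, with 95% intervals as horizontal bars, for all 6 libraries (black circles) and without αGlu 1 (orange diamonds). With all libraries only the interval of Ier3 lay clear of 0, and without αGlu 1 those of Egr1, Egr2, Nr4a2, Ier3 and Ier5 did.

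The spread inside the αGlu group differed among the genes. The SD of log2 CPM of Ier3 was 0.0684 among Ctr libraries, at the 20.6 percentile of all genes tested, and 1.29 among αGlu libraries, at the 95.2 percentile. For Egr2 it was 0.166 in Ctr and 1.10 in αGlu, at the 59.2 and 93.7 percentile, and for Egr1 0.249 and 1.71, at the 74.7 and 97.5 percentile. Ier2 varied little in either group (0.177 and 0.150). Relative to the Ctr mean, αGlu 1, 2 and 3 stood at 0.29, 2.48 and 2.57 on the log2 scale for Ier3 and at -0.22, -1.95 and -2.26 for Egr2. Nr4a1 was different in that αGlu 1 deviated most, at -0.91, against -0.24 and -0.35.

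The genes with the nearest profiles were sought among 8400 genes of sufficient level, by the root mean square (RMS) difference of centred log2 CPM over the 6 libraries. The 3 nearest to Egr2 were Lipn, Tle1 and Cdk18 (RMS 0.0867 to 0.0913), and those nearest to Egr1 were Crip1, Rims3 and Angptl2 (0.175 to 0.194). For Ier3 they were Hif1a, the oxygen-regulated transcription factor, Icam1, the leukocyte adhesion molecule, and the ternary complex factor Elk3 (0.0889 to 0.0952). Hif1a ranged from 82.8 to 87.7 CPM across Ctr, against 94.6, 437 and 442 CPM in αGlu 1, 2 and 3. Those of Ier5 were Sh2d3c, Slc29a3 and Sel1l3 (0.0749 to 0.0904), and those of Nr4a2 were Klf7, Pygl and the integrin Itgam (0.0775 to 0.181). Nr4a1 was nearest to Cbr3, Tpm4 and Uchl3 (0.113 to 0.151) and Ier2 to Yeats2, Iars2 and Papss2 (0.0212 to 0.0566). Among the 7 genes themselves, the closest profiles were those of Nr4a1 and Ier2 (0.312), of Egr2 and Ier5 (0.466) and of Egr1 and Egr2 (0.577), and the farthest were those of Egr1 and Ier3 (2.67). The difference is small wherever both genes vary little. Ier2 and Nr4a1 had the smallest ranges of the 7 (0.331 and 1.04 on the log2 scale), so their nearness does not show a shared pattern. All these profiles come from the same 6 libraries, and nearness is a description of them.

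**Figure D4:**
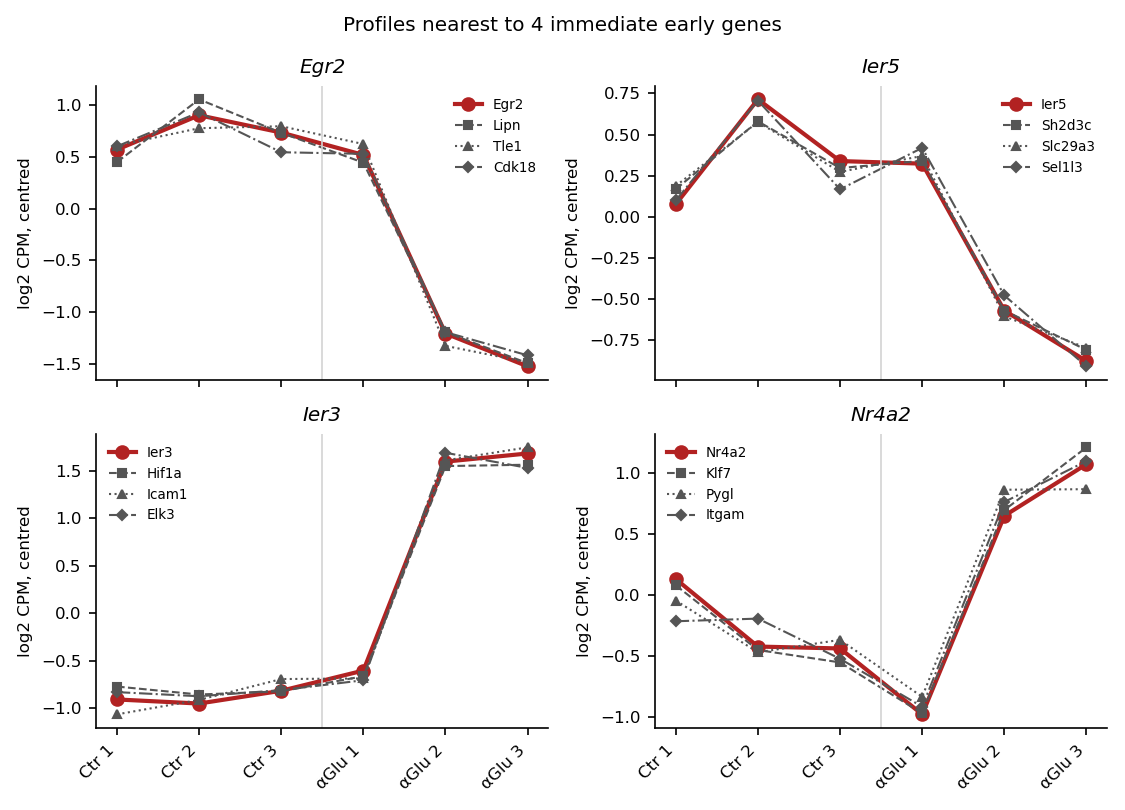
Log2 CPM centred on the mean of the 6 libraries (y axis) for Egr2, Ier5, Ier3 and Nr4a2 (red), each with its 3 nearest genes (grey), by library (x axis, a vertical line dividing Ctr from αGlu). αGlu 1 lay near Ctr for Egr2, Ier5 and Ier3, and below every Ctr library for Nr4a2 and its neighbours.

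The partners and close relatives of the 9 genes included 7 genes, of which 5 were tested, with a median log2 fold change of -0.06 (-0.05 without αGlu 1) against 0.02 over all genes tested (0.01 without αGlu 1). The fold changes of the EGR corepressors had opposite signs. Nab2 stood at 80.4, 69.0 and 58.6 CPM for Ctr against 54.2, 32.2 and 35.1 CPM for αGlu, without overlap (log2 fold change -0.78 ± 0.23; adjusted p = 0.160, edgeR quasi-likelihood test, and -1.05 ± 0.14 without αGlu 1). Nab1 stood at 44.7, 49.2 and 53.0 CPM for Ctr against 50.5, 148 and 145 CPM for αGlu, so that αGlu 1 lay within the Ctr range (1.22 ± 0.40; adjusted p = 0.167, and 1.57 ± 0.092 without αGlu 1). Of the retinoid X receptors, which pair with some NR4A proteins, Rxra overlapped with Ctr (log2 fold change -0.06) and Rxrg was not tested. Rxrb lay slightly above every Ctr library, at 42.0, 38.0 and 39.0 CPM for Ctr against 45.3, 44.5 and 46.7 CPM for αGlu (0.20; adjusted p = 0.176, edgeR quasi-likelihood test). Ier5l, a relative of Ier5 chosen here after its values were seen, stood at 7.86, 3.59 and 3.48 CPM for Ctr against 2.07, 0.0630 and 0.110 CPM for αGlu (-2.87 ± 1.20; adjusted p = 0.207). Without αGlu 1 its log2 fold change was -5.80 ± 0.66 and it was called (adjusted p = 0.00107, edgeR quasi-likelihood test).

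Upstream of the immediate early genes, 15 promoter-acting factors were all tested and had a median of 0.12 (0.14 without αGlu 1). Elk3 stood at 19.9, 19.4 and 20.2 CPM for Ctr against 21.7, 114 and 102 CPM for αGlu (log2 fold change 2.00 ± 0.58; adjusted p = 0.159, edgeR quasi-likelihood test, and 2.44 without αGlu 1). Crem, which encodes CRE-binding activators and repressors, ranged over 7.05 to 8.36 CPM for Ctr against 7.17, 32.2 and 32.4 CPM for αGlu (1.63 ± 0.55; adjusted p = 0.170, and 2.06 without αGlu 1). The other 13 factors had log2 fold changes from -1.16 for Mef2c to 0.57 for Crtc3, and Mrtfa, a coactivator of serum response factor, was at -0.67 ± 0.36. Without αGlu 1, Mef2c (-1.85) and Mrtfa (-1.22) were called lower, and these names were chosen after their values were seen. The 17 genes of the MAP kinase pathway had a median of 0.16 (0.23 without αGlu 1), and the lowest unadjusted p values were those of Map2k3 (-0.63 ± 0.14; adjusted p = 0.156, and -0.80 without αGlu 1) and Mapk3, which encodes ERK1 (-0.50 ± 0.17; adjusted p = 0.168, and -0.70 without αGlu 1).

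Of 24 other immediate early genes, 23 were tested, with a median of -0.17 (-0.10 without αGlu 1), and 1 lay higher and 5 lower than every Ctr library. The Krüppel-like factors Klf4 (-0.87 ± 0.22; adjusted p = 0.156, edgeR quasi-likelihood test, and -1.13 without αGlu 1) and Klf10 (-0.72 ± 0.16; adjusted p = 0.156, and -0.86 without αGlu 1) were lower in all 3 αGlu libraries. The others without overlap, named after their values were seen, were Klf2, Arc and Rgs2 (lower) and the mRNA decay factor Zfp36l1 (higher, at 67.6 to 86.7 CPM in Ctr and 101, 411 and 429 CPM in αGlu). Of 8 AP-1 genes 6 were tested, with a median of 0.04 (0.07 without αGlu 1). Atf3, a stress-responsive repressor, stood at 646, 764 and 643 CPM for Ctr against 521, 247 and 180 CPM for αGlu (-1.12 ± 0.40; adjusted p = 0.178, and -1.69 without αGlu 1), and Jun overlapped (-0.65 ± 0.31; adjusted p = 0.244, and -1.07 without αGlu 1). Fos (0.71, and 1.12 without αGlu 1) and Fosl2 (0.93, and 1.35 without αGlu 1) overlapped too, and were named after their values were seen. Without αGlu 1, Fos and Fosl2 were called higher, and Atf3 and Jun lower. The 8 MAP kinase phosphatases, which switch the pathway off, had a median of 0.10 (0.04 without αGlu 1), and Dusp5, specific for ERK, had the smallest unadjusted p (-1.24 ± 0.27; adjusted p = 0.152, and -1.40 without αGlu 1), followed by Dusp10 (-0.96 ± 0.30; adjusted p = 0.162, and -0.89 without αGlu 1).

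Across these 6 lists, 74 of 79 genes were tested and none was called with all libraries, while DESeq2 called 13, where it called 8.13% of all genes. Without overlap, 6 were higher and 15 lower, where all genes gave the 14.2% and 15.9% stated above. Without αGlu 1, the quasi-likelihood test called 12 higher and 17 lower, against 8.05% and 10.5% of all genes. Among them were Nab1, Elk3, Crem, Zfp36l1, Fos, Fosl2, Dusp6 and Dusp16 (higher) and Nab2, Klf4, Jun, Atf3 and Dusp5 (lower). Of the 24 other immediate early genes 4 were then called higher and 7 lower. The lists held genes in both directions, as did the EGR, NR4A and IER genes.

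**Figure D5:**
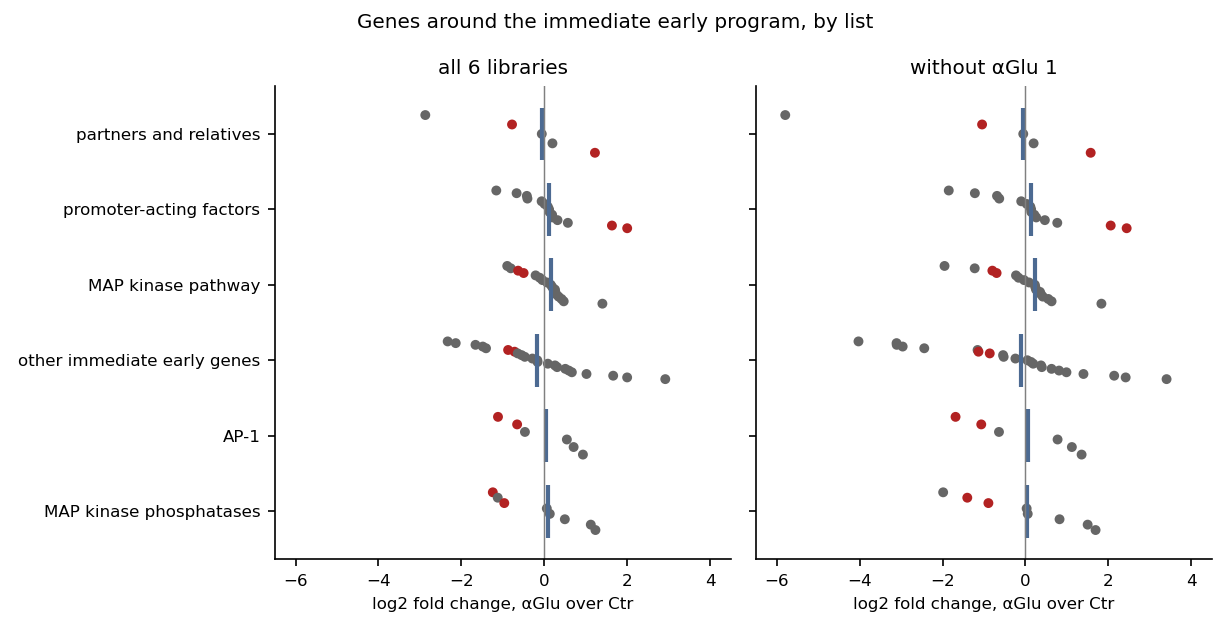
Log2 fold change of αGlu over Ctr (x axis) of each tested gene in the 6 lists (y axis), for all 6 libraries (left) and without αGlu 1 (right). Red points are the 2 genes with the smallest unadjusted p of each list, blue bars are medians, and the medians stayed between -0.17 and 0.23 while single genes spread to both sides.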

How the data were processed

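Stranded mRNA libraries of 6 macrophage cultures (3 Ctr, 3 αGlu, numbered in the labels) were sequenced, and read annotation by the authors used the RNA-seq Analysis Portal of QIAGEN. The submitters' processing notes name GRCm38. The aligner and annotation are not given in the sources used here. The authors deposited 4 values per gene and library: raw counts of reads over exons, RPKM and TPM, and a CPM signal that was not used. RPKM served only as an alternative to TPM in the family ratios. Each of the 24 value columns carries the name of 1 library, and 1 empty line was dropped. Coordinates are those of GENCODE M21 (GRCm38).

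Counts were filtered (filterByExpr, minimum count 10, minimum total 15), scaled by TMM and tested with the quasi-likelihood test of edgeR 4.0.16 in R 4.3.3 with group as the only term (two-sided, Benjamini-Hochberg adjusted). Standard errors were computed as the fold change over the root of its F value. A prior count of 2 was added for log2 CPM. The fit was tested on simulated counts drawn with the spread of the Ctr libraries. They held no library like αGlu 1, so they do not show how the fit behaves in its presence. The members and lists were chosen with earlier results of these data known. Named are all members, the 2 genes of each list with the smallest unadjusted p, and the 3 nearest profiles of each tested member (mean log2 CPM of at least 3; gene models and mitochondrial genes left out). Alternatives were DESeq2 1.42.0, limma-voom (limma 3.58.1), RLE factors, library size alone, other filters and thresholds, a replicate block, another pseudocount and each library left out in turn. Duplicate libraries were looked for and not found (chi-square per gene of 18.9 or more in each pair). Per the study, each replicate of primary cells is a preparation from another animal. Whether libraries of the same number share an animal is not given in the sources used here.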

Additional observations from a re-analysis of the deposited data

How the results depend on the processing

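Of 267 alternative values for 27 results, 246 kept their direction and their side of the threshold or stayed within the spread between replicates. For the within-family ratios only a change of sign could count, since their exact permutation p cannot go below the threshold of 0.1. Counts of genes were taken as kept when equal or of similar size. The figure of 246 is therefore no measure of how firm the ratios are. With DESeq2, 1117 genes and 1 of the 9 genes (Ier3, log2 fold change 2.08, adjusted p = 0.00364) were called instead of 0. Leaving out 1 library at a time gave 0 to 2290 genes, 0 to 5 of the 9 genes and 0 to 29 genes of the lists, and each of the highest counts came without αGlu 1. The leave-one-out log2 fold changes ranged from -3.46 to -1.21 for Egr1, from -2.11 to -0.84 for Egr2, from 0.39 to 1.21 for Nr4a2, from 1.77 to 2.52 for Ier3, from -1.12 to -0.46 for Ier5, from -0.66 to -0.34 for Nr4a1 and from -0.13 to 0.038 for Ier2. Ier2 also turned to 0.058 with library size alone, which moved the median of all genes to 0.10. The Egr2 to Egr1 ratio turned from -0.195 to 0.717 with a TPM pseudocount of 0.1. With library size alone the medians of the promoter-acting factors and of the MAP kinase pathway moved to 0.207 and 0.247, and leaving out libraries moved the latter from 0.0711 to 0.226. The causes were not tested. The libraries were not treated as pairs, since the deviations of same-numbered libraries correlated at 0.065 to 0.15 and not all above 0.1. Every library correlated best with its own number, which is a hint of pairing, and low correlations cannot exclude it. For the level of the fragment itself, and not for mRNA, the paper compared αGlu with Ctr in transfected macrophages by a paired t test. It states no pairing for these libraries, and a fit with group as the only term ignores pairing. A replicate block called 17 genes and none of the 9. Depth limits Egr3 and Nr4a3, for which no fold is given.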
